A study of Mus musculus with 6 samples.

Results

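The mature microRNA names numbered from 6000 and below 9000 are late entries of miRBase, the registry of microRNA sequences. One entry was kept per mature name, that with the highest total, and a name was a member if it had at least 20 raw reads summed over the 6 small RNA libraries. That gave 134 members of the 1915 mature names in the table, or 7.0%. The members were thus chosen by their read totals, and their depth is a description with no test. Of the 713 names in that number range, 134 (18.8%) were members, 264 had 1 to 19 reads and 315 were listed at 0. At the edge of the rule, 9 members stood at 20 reads, among them miR-6541 and miR-6769b-3p, while miR-7049-5p had 19 reads and miR-7051-5p had 18.

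The libraries came from mouse iBN cells, a line labelled granulocyte-macrophage progenitor that carries a PU.1-inducible system. PU.1 is a transcription factor of myeloid and B-lymphoid cells. The 3 induced samples received 1000 ng/ml doxycycline for 72 hours and the 3 uninduced samples did not; cells of both groups carried the system and grew with GM-CSF, a myeloid growth factor. Samples are numbered as trials 1, 2 and 3 in each group. The labels do not say that trials were separate cultures, so p-values measure only the spread between these samples, and doxycycline on cells without the system was not analysed here. In bulk libraries, fewer cells of a type and less RNA per cell cannot be told apart. Library totals ran from 8697384 to 13946613 reads, and a count of 0 allowed a level of up to 0.215 to 0.345 CPM (a library's counts scaled to a total of 1000000) by the limit of 3 reads, which covers counting error only. Haematopoietic miR-142a-5p stood at 54993 to 74529 CPM and myeloid miR-223-3p at 2732 to 8679 CPM. Of the 11 markers of other cell types, the erythroid miR-144-3p, the muscle miR-206-3p and the neural miR-124-3p had 0 reads, and the erythroid miR-451a, the muscle miR-1a-3p and miR-133a-3p and the liver miR-122-5p had 17 or fewer. The lymphoid miR-150-5p stood at 23.6 to 46.5 CPM, with overlapping groups. The epithelial markers were higher in the induced group, with no overlap: miR-141-3p stood at 19.7 to 24.6 CPM in uninduced and 56.3 to 62.2 CPM in induced libraries, and miR-200c-3p at 5.89 to 10.3 against 11.4 to 23.8 CPM. The neural miR-9-5p, with 49 reads, had separate groups too, at 0.230 to 0.437 CPM uninduced and 0.967 to 1.43 CPM induced. Their part in the results below was not tested.

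A canonical microRNA is cut from a longer transcript by Drosha and then from its hairpin by Dicer, and one arm of the hairpin is loaded onto an Argonaute protein. A mirtron skips Drosha: its hairpin is a short spliced intron, so that the 5′ end of the hairpin is the 5′ splice site and the 3′ end is the AG of the 3′ splice site. In a tailed mirtron only one end of the hairpin is a splice site, and the rest of the intron is trimmed away. Many late miRBase entries were annotated from deep sequencing of such introns.

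The sequences below show the members on which the results turn. They are from RefSeq (GRCm38.p6, the assembly of mm10), written 5′ to 3′, with the seed (bases 2 to 8) in capitals; 117 of the 134 members matched a mature entry. The first set holds 3p arms that end at or beside an annotated 3′ splice site, and most of them close on the AG of the intron.
miR-7068-3p: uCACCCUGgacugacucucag
miR-7015-3p: uCUCACUGuccucugcacuag
miR-6989-3p: uGUCCACUgucucuggucccag
miR-7046-3p: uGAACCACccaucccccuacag
miR-6988-3p: uGACCUCUguaucuccugccag
miR-7006-3p: uUUCUGACcuggauccccag
miR-7091-3p: aGUGGCUUcugucgucucuag
miR-6418-3p: aCUGCAACcuccuuucuccagg
The second set holds abundant or differing members that lie away from 3′ splice sites.
miR-8114: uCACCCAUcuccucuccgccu
miR-8112: uCUCCGCCaccuccaccgca
miR-8103: uCUCCUGUucucuguucuccc
miR-6240: cCAAAGCAucgcgaaggcccacggcg
miR-7688-5p: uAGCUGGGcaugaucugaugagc
miR-6481: cACUGAAAaugcuuagaug
miR-6541: cACAGGCAaggacuucucaag

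Whole hairpins show the 2 kinds of intronic position. In the next 4 the capitals mark intron-end bases, the GU of a 5′ splice site or the AG of a 3′ splice site. Mir7068 (chr8:72470016-72470089, minus strand) is a whole 74-nt intron of Cherp, a gene linked to calcium homeostasis and RNA splicing. Mir7091 (chrX:74274027-74274105, minus strand) is a whole 79-nt intron of Dnase1l1, a DNase I relative. Mir6989 (chr19:6346480-6346544, plus strand) ends with a 77-nt intron of the kinase gene Map4k2 but starts 12 nt inside it. Mir7046 (chr7:24970010-24970075, minus strand) ends at a 3′ splice site of Rabac1, a Rab acceptor gene.
Mir7068: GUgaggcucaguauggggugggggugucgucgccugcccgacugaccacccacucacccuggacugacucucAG
Mir7091: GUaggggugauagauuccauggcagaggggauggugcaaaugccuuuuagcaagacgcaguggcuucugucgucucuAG
Mir6989: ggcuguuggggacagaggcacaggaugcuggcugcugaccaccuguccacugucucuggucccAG
Mir7046: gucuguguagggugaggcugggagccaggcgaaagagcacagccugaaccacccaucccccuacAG

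The mirtron-like label was checked against the annotation (GENCODE M21, mm10), with a hairpin end counted as a splice site within 5 nt of an annotated intron end on its strand. The members with a RefSeq hairpin, 113 of 134, came from 102 hairpins. Of these, 66 (64.7%, exact 95% interval 54.6 to 73.9) had an end at a splice site. The same held for 1 of 188 hairpins (0.532%) numbered below 1000, for 2 of 32 (6.25%) numbered from 1000 and below 2000 and for 8 of 55 (14.5%) numbered from 2000 and below 6000, all with the same read minimum. At this tolerance almost all the splice-site hairpins of the members were of the tailed form. Of them, 60 had only the 3′ end at a 3′ splice site and 5 spanned a whole intron. The remaining 1 (Mir6936, in the deacetylase gene Sirt7) had only the 5′ end at a 5′ splice site. The whole introns were 73 to 88 nt long. Among the other 36 hairpins, 14 lay inside an intron away from its ends, 16 overlapped an exon and 6 had no annotated gene on their strand.

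**Figure D1:**
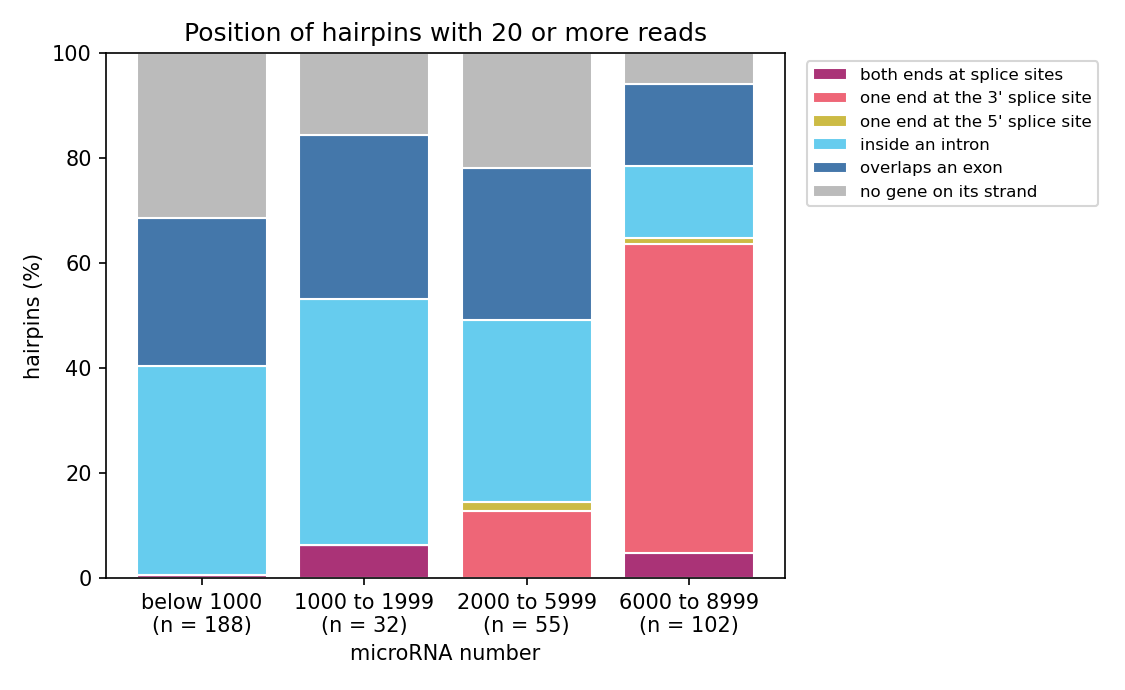
Share of hairpins (%, y axis) by annotated position, for 4 ranges of microRNA number (x axis, with the number of hairpins). Hairpins with an end at a splice site make up 64.7% of the late-numbered hairpins and 0.532% of those numbered below 1000.

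The share of reads placed at splice sites was smaller than the share of hairpins. Members on splice-site hairpins numbered 73 and held 7622 reads, or 27.9% of all member reads. Members at other positions numbered 40 and held 41.4%, and the 21 members without a hairpin entry, whose position was not classed here, held 30.7%. Within the first group, the 6 members on whole introns held 10.2% of all member reads, most of them from miR-7068-3p, and the 65 members with a hairpin end at a 3′ splice site held 17.3%.

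The annotated ends of the 65 hairpins that reach a 3′ splice site were precise: 63 ended on the last base of the intron. Read ends were not examined, so this describes the entries and not the processing in these libraries. All 65 lay in genes annotated as protein-coding. Their introns ran from 73 to 36269 nt with a median of 239 nt, against a median hairpin of 66 nt; 26 introns were 150 nt or shorter and 18 were longer than 1000 nt. The longest carries Mir6899, in the transcription factor gene Klf7. Among all member hairpins, a pair had an identical copy in a paralogous gene, and reads from the copies cannot be assigned to either. miR-6967 lies in Kifc1 and Kifc5b, which encode kinesins, at a 3′ splice site in each. miR-7676-3p lies in Csf2rb and Csf2rb2, which encode β chains of cytokine receptors, and its hairpins are not among the 65. Of these, miR-7676-3p was chosen for its host after its values were seen.

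The annotated mature 3p ends sat on the same boundary. Of 70 member 3p arms with a mature entry, 41 (58.6%) ended exactly on the last base of an annotated intron and 54 (77.1%) ended within 5 nt of one. The other 16 ended more than 10 nt away. Of 142 arms numbered below 1000, 0 ended exactly on an intron end and 2 ended within 5 nt. Off by a few bases were 4 member arms ending 1 nt short of the boundary, 7 ending 2 nt short and 2 ending 1 nt past it. Among the arms ending past it was miR-6418-3p, whose printed sequence runs 1 base beyond the AG of a 93-nt intron of Gnb2, a G protein β subunit gene.

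**Figure D2:**
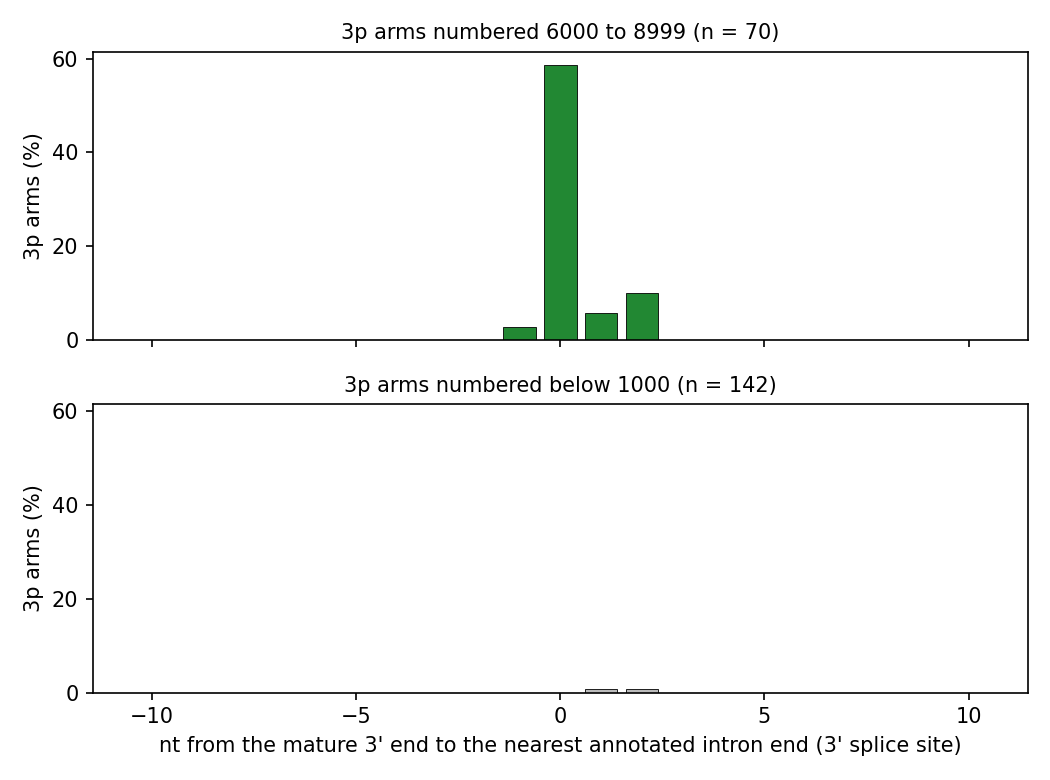
Share of 3p arms (%, y axis) by the distance in nt from the mature 3′ end to the nearest annotated intron end (x axis), for late-numbered arms and for those numbered below 1000. Exact ends hold 58.6% of the 70 late-numbered arms and 0% of the 142 low-numbered arms; ends beyond 10 nt are not drawn.

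The base composition of the member 3p arms differed from that of 3p arms numbered below 1000, while introns themselves were not measured. The member arms ended in AG in 43 of 70 cases (61.4%), against 7 of 142 (4.93%) below number 1000. Since 41 of the 70 ended on the last base of an annotated intron, the AG share is not a separate result. Their median pyrimidine content was 71.4% against 52.2%, and their median GC content 57.1% against 47.6%. The bands in between had intermediate values: pyrimidine and GC medians were 66.7% and 52.4% for 15 arms numbered from 1000 and below 2000, and 61.9% and 52.4% for 26 arms numbered from 2000 and below 6000. Of those 26 arms, 26.9% ended in AG, 26.9% ended exactly on an intron end and 38.5% ended within 5 nt of one. A first base U, which Argonaute proteins favour, stood in 41 of 70 (58.6%) against 44 of 142 (31.0%) below number 1000. It stood in 46.2% of the arms numbered from 2000 and below 6000, and in 20% of those from 1000 and below 2000. The median length was 21 nt against 22 nt below number 1000. The 33 member 5p arms with a sequence had a median pyrimidine content of 40.0%, with 1 ending in AG and 11 starting with U.

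The seed, which pairs with target messages, was different in each of the 117 members with a sequence. Only 5 shared a seed with a mature name outside the members that had at least 20 reads. One was miR-6240, with the seed of miR-330-3p, and another was miR-7006-3p, with that of miR-1966-3p. The others were miR-6967-5p with miR-1943-5p, miR-7069-3p with miR-18a-3p, and miR-7661-3p with miR-3077-3p.

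Some member sequences also occur in other RNAs. An exact match to an annotated transcript that is not a microRNA was found for 32 of 117 (27.4%), of which 4 lay in tRNA, scaRNA or snoRNA genes. Only GENCODE transcripts were searched, so near matches and RNAs outside that annotation are not counted. The sequence of miR-6481 is contained in mt-Tf, the mitochondrial phenylalanine tRNA. Both arms of miR-6516 lie in a scaRNA gene within Snhg20, and miR-7650-5p lies in a snoRNA gene within Taf1d; these 3 were named after their matches were seen. The sequence of miR-8114 lies in an untranslated region of Glul, the glutamine synthetase gene, and that of miR-8112 in one of Krcc1. Reads from such transcripts cannot be told from the microRNA by sequence.

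Depth was low and unequal. The 134 members held 27317 of 63990244 reads, or 0.0427%, with a median of 48 reads per member and a range of 20 to 6964. The 5 with 1000 or more reads held 59.7% of the member reads, and miR-6539 alone held 25.5%. In contrast, names numbered below 1000 with at least 20 reads had a median of 2503 reads, those numbered from 1000 and below 2000 had 221 and those numbered from 2000 and below 6000 had 99.5. Only 34 members reached 100 reads, and 69 had 20 to 49. Reads were found in all 6 libraries for 121 members; 12 were at 0 in 1 library and only miR-6541 was at 0 in more.

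That depth set the precision. For the 69 members with 20 to 49 reads, the exact 95% interval of the induced to uninduced ratio spanned a median of 5.25-fold between its ends, and the span was 2.87-fold for 50 to 99 reads, 1.89-fold from 100 and below 1000, and 1.18-fold for 1000 or more. These intervals cover counting error only, since no molecular identifiers are described. The dispersion index, the variance between libraries of a group over that expected from counting alone, had a median of 1.27 at 20 to 49 reads, 1.26 at 50 to 99, 1.84 from 100 and below 1000, and 3.96 at 1000 or more. An index near 1 means that counting error is most of the spread, as it was for the members below 100 reads.

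The 5 most abundant members differed in how well the trials repeated. Levels here are CPM with TMM scaling, in the order trials 1, 2 and 3. The most read, miR-6539, for which no sequence was at hand, stood at 128.43, 88.24 and 159.77 CPM in uninduced and 93.67, 65.69 and 110.73 CPM in induced libraries. Trial 2 was lowest and trial 3 highest in both groups, and the groups overlapped. Its dispersion index was 78.7. The next, miR-7224-3p, from inside an intron of the glycosyltransferase gene B3galt1, kept the same order, with 57.65, 50.23 and 72.97 CPM uninduced and 47.42, 38.34 and 66.90 CPM induced, and an index of 34.4.

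The other 3 had lower indices. The whole-intron miR-7068-3p stood at 28.61, 27.78 and 34.61 CPM uninduced and at 42.60, 44.51 and 37.89 CPM induced, so that each induced library was above each uninduced one, with an index of 3.96. miR-8114 stood at 32.67, 28.78 and 30.40 CPM uninduced and 28.90, 27.13 and 30.84 CPM induced, with an index of 1.22. miR-8112 stood at 21.78, 22.89 and 24.90 against 23.34, 24.44 and 22.98 CPM, with an index of 0.676. For miR-8114 and miR-8112 the groups overlapped and the libraries differed by about what counting gives.

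Among the next by depth, miR-6240 had trial 2 highest in both groups, at 11.64, 21.01 and 10.62 CPM uninduced and 12.46, 18.16 and 8.59 CPM induced, with an index of 20.9. It and miR-7688-5p had no annotated gene on their strand. miR-8103, inside an intron of the lipid-binding protein gene Osbpl7, was even, at 12.06, 12.11 and 11.08 against 13.95, 15.81 and 13.14 CPM, and its groups did not overlap. miR-6989-3p stood at 6.41, 4.22 and 5.68 CPM uninduced and 7.47, 7.96 and 10.13 CPM induced, again with separate groups. miR-7688-5p (5.66, 4.56 and 6.50 against 8.14, 8.18 and 5.51 CPM), miR-7046-3p (2.56, 4.33 and 6.32 against 4.98, 4.15 and 5.80 CPM) and miR-6988-3p (4.16, 3.22 and 3.30 against 4.15, 5.27 and 4.99 CPM) each had overlapping groups. The last comes from an intron of Syvn1, which encodes a ubiquitin ligase of the endoplasmic reticulum.

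**Figure D3:**
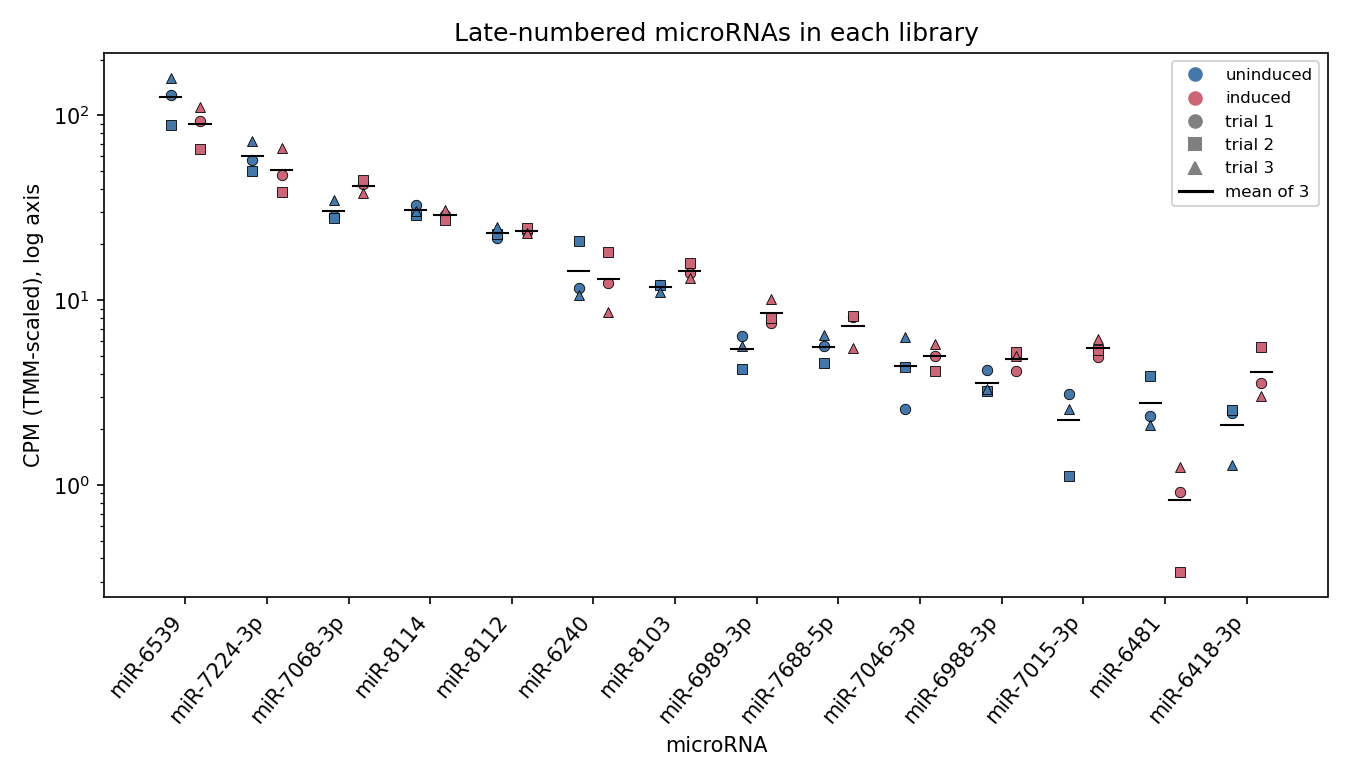
Level of 14 late-numbered microRNAs (x axis) in each library, as TMM-scaled CPM on a log y axis, with one point per library coloured by group. Points of miR-8114 and miR-8112 lie together while those of miR-6539 and miR-6240 spread within each group.

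Arm use leaned to the 3′ side. Of the members, 83 were 3p names with 12280 reads, 36 were 5p names with 2180 reads, and 15 names without an arm held 12857 reads. The table itself lists 293 3p and 294 5p names in this number range, so that the lean is not in the listing. Over both arms, 115 late-numbered hairpins had at least 20 reads; 79 (68.7%) had more reads on the 3p arm, 34 on the 5p arm, and 2 were equal. The median hairpin had 87.9% of its reads on the 3p arm. The exact 95% interval of that share lay above 50% for 74 hairpins, below it for 23, and held it for 18. Intervals of arm shares, here and below, are of summed reads and cover counting error only, not the spread between libraries. Of hairpins numbered below 1000, 48.1% of 189 favoured the 3p arm, with a median of 42.3%, and the shares were 37.5% of 24 hairpins numbered from 1000 and below 2000 and 55.6% of 36 numbered from 2000 and below 6000.

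A strong bias, with at least 90% of reads on 1 arm, was found in 64 of the 115 hairpins (55.7%), 54 toward 3p and 10 toward 5p. It was found in 65.6% of the hairpins numbered below 1000. At the extremes, miR-7224 had 4 reads on 5p and 3613 on 3p (99.9% 3p), miR-7068 had 7 and 2322 (99.7%, 95% interval 99.4 to 99.9), and miR-6988 had 0 and 269 (100%, 98.6 to 100). On the other side miR-7688 had 411 reads on 5p and 1 on 3p (0.243%). One arm was at 0 in 20 hairpins.

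Only 14 hairpins had at least 20 reads on both arms. miR-6967 had 46 reads on 5p and 165 on 3p (78.2% 3p, 95% interval 72.0 to 83.6), and miR-7667, from the Tbc1d22b gene, was nearly even with 74 and 101 (57.7%, 50 to 65.1). In the summed reads, the 5p arm led in miR-7655, from the leukaemia fusion partner gene Mllt10, with 98 and 68 (41.0% 3p, 33.4 to 48.9). It also led in the whole-intron miR-7091, with 98 and 67 (40.6%, 33.0 to 48.5). miR-6990 had 90 and 30 (25%), and miR-7069 had 44 and 68 (60.7%). The 3p share of single libraries ran from 29.3 to 60.9% for miR-7655, 29.6 to 52.9% for miR-7091 and 33.3 to 69.0% for miR-7667. The leading arm was thus not the same in every library. For miR-7655 the 3p share of the summed reads was 48.8% in uninduced and 33.3% in induced libraries. The shares of single libraries had an SD of 10.2 and 4.50 percentage points (n = 3 each), and the difference was not tested.

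**Figure D4:**
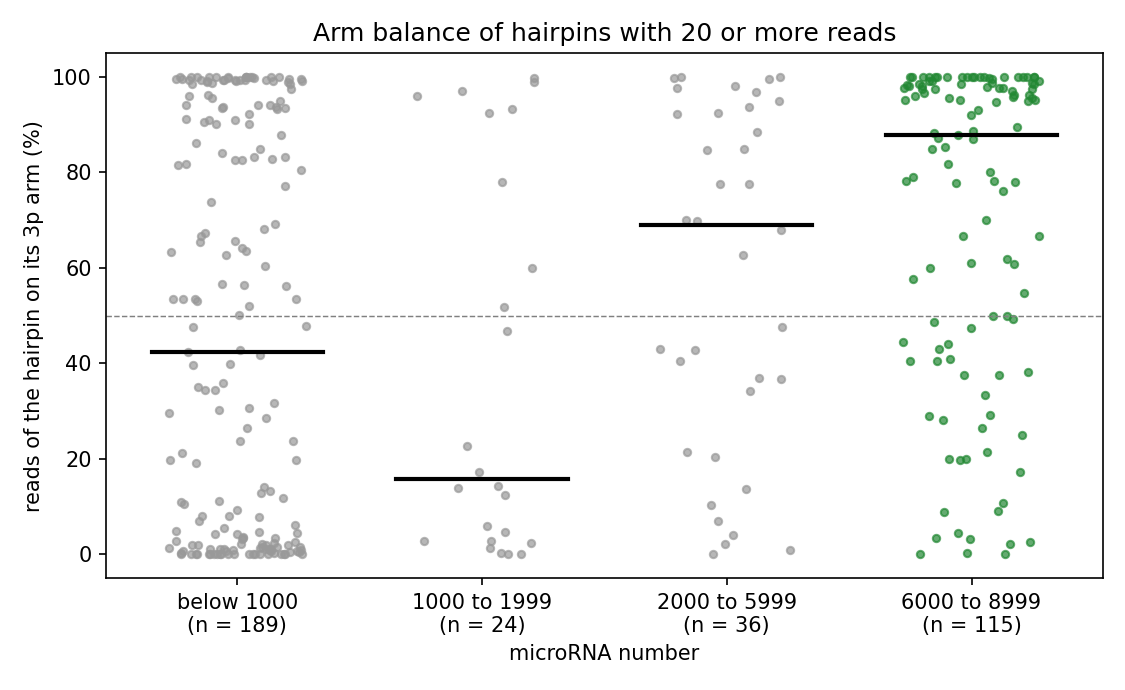
Share of a hairpin's reads on its 3p arm (%, y axis) for 4 ranges of microRNA number (x axis, with the number of hairpins); each point is 1 hairpin with at least 20 reads, and the dashed line is 50%. Late-numbered hairpins gather at the top, with a median of 87.9%, and those numbered below 1000 lie at both ends, with a median of 42.3%.

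The comparison of induced with uninduced cells asked which of these microRNAs differed after PU.1 was induced. The summed level did not differ beyond the spread between trials. Summed over all members, the TMM-scaled level was 427.87, 374.3 and 478.2 CPM in the uninduced libraries (mean 426.79 ± 51.96, SD, n = 3) and 420.53, 385.31 and 456.52 CPM in the induced ones (420.79 ± 35.61, SD, n = 3). The groups overlapped, and the difference of -6.01 CPM was smaller than either SD. Single members were tested with edgeR's quasi-likelihood test (Benjamini-Hochberg adjustment over all 525 names that passed the filter on low counts). Of the members 60 were tested, and 74 with 20 to 61 reads were not.

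A change passed the adjusted threshold of 0.05 for 2 of the 60 tested members (3.33%): miR-7015-3p rose and miR-6481 fell. Over all tested names 6.1% passed, 3.43% higher and 2.67% lower, so the members' share was not above the background. At an unadjusted p under 0.05 stood 11 of 60 (18.3%), 9 higher and 2 lower, against 20.8% of all tested names, 11.4% higher and 9.33% lower. Groups did not overlap for 18 of 60 (30%), 15 higher and 3 lower, against 27.6%, 16% higher and 11.6% lower. With the trial number as a block, the trials being paired in these data, 6 of 60 passed, 4 higher and 2 lower. That was a smaller share than the 21.7% of all tested names, 10.7% higher and 11% lower. Calls without the block, and the SEs and leave-one-out values below, came from the group-only fit, which leaves out that pairing.

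miR-7015-3p (chr4:120973259-120973279, minus strand) ends on the 3′ splice site of a 1127-nt intron of Smap2, which encodes an Arf GTPase-activating protein. It stood at 3.096, 1.111 and 2.564 CPM in uninduced and 4.900, 5.381 and 6.168 CPM in induced libraries, from 10 to 29 and 48 to 84 reads. Every induced library was above every uninduced one, and the log2 change was 1.27 (SE 0.32, edgeR adjusted p = 0.0499). The adjusted p was 0.0064 with the trial block. Without any 1 library the adjusted p ran from 0.0464 to 0.153, and it passed only when uninduced trial 3 was left out.

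miR-6481 (chr3:99199367-99199385, minus strand), whose sequence is within the mitochondrial tRNA mt-Tf, stood at 2.349, 3.890 and 2.106 CPM uninduced and 0.913, 0.336 and 1.248 CPM induced. The groups did not overlap, and the log2 change was -1.64 (SE 0.42, edgeR adjusted p = 0.0499, and 0.018 with the trial block). Leaving out any 1 library gave adjusted p-values from 0.0317 to 0.183, and it passed without uninduced trial 3 and without induced trial 3. In the group-only fit, both calls thus stood at the threshold itself.

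The trial block added 4 members. Whole-intron miR-7068-3p had a log2 change of 0.46 (SE 0.15, edgeR adjusted p = 0.123, and 0.017 with the block), and miR-6989-3p one of 0.65 (SE 0.22, 0.126 and 0.020). miR-6418-3p stood at 2.46, 2.56 and 1.28 CPM uninduced and 3.57, 5.61 and 3.01 CPM induced, a log2 change of 0.94 (SE 0.34, 0.147 and 0.018). miR-6539, lower in each trial by similar factors, had a log2 change of -0.48 (SE 0.24, 0.298 and 0.0024). In miR-6539 the spread between trials was wider than the difference between groups, so the groups overlapped although each trial gave the same direction.

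The other members with the largest positive changes had few reads and did not pass the test. miR-6933-5p, in the phospholipid synthesis gene Pgs1, stood at 0.214, 0.667 and 0.824 CPM uninduced and 1.080, 1.682 and 1.175 CPM induced (log2 1.14, SE 0.44, edgeR adjusted p = 0.178). miR-7006-3p, in the zinc finger gene Zfp512b, stood at 0.854, 0.556 and 1.099 against 1.827, 2.018 and 1.395 CPM (1.01, SE 0.34, 0.123). For both, every induced library was above every uninduced one. miR-7059-5p, in the lysosomal gene Cln3 (0.97, SE 0.33, adjusted p = 0.126), and miR-6956-3p, in the actin-binding protein gene Triobp (0.90, SE 0.33, adjusted p = 0.151), had separate groups too.

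The largest negative changes after miR-6481 also failed the test. miR-6936-3p stood at 2.242, 1.334 and 1.007 CPM uninduced and 1.080, 0.224 and 1.102 CPM induced, with overlapping groups (log2 -0.82, SE 0.49, edgeR adjusted p = 0.388). miR-7655-3p stood at 1.495, 1.222 and 1.373 against 0.913, 0.561 and 0.881 CPM, with separate groups (-0.76, SE 0.32, 0.219), while the 5p arm of the same hairpin had a log2 change of 0.16 (SE 0.38, 0.848). miR-6975-3p, in the RNA helicase gene Ddx39b, had -0.54 (SE 0.46, 0.548). miR-7079-3p, in the ribosomal protein gene Rpl13, stood at 1.922, 1.556 and 1.740 against 1.412, 0.897 and 1.542 CPM (-0.40, SE 0.30, 0.505).

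Among hairpins with both arms read, the arms of miR-7091 had log2 changes of 0.42 (SE 0.32) for 5p and 0.48 (SE 0.36) for 3p. Those of miR-7667 had -0.19 for 5p and 0.14 for 3p. miR-6967-3p had 0.0096 (SE 0.41); its 5p arm was not tested, and its summed reads gave an induced to uninduced ratio of 2.18 (exact 95% interval 1.12 to 4.52, counting error only). None of these arms that were tested passed.

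One member was read in only 1 group. miR-6541, from inside a 47752-nt intron of Wdfy2, had 0, 0 and 0 reads in uninduced and 8, 8 and 4 reads in induced libraries. With the uninduced total set at a floor of 3 reads, its induced level was 5.73-fold higher. This figure takes the induced reads as exact, so it is not a lower bound. Its 20 reads put it at the minimum of the membership rule, and it was a member through its induced reads alone. That difference is therefore a description, with no test. Among the untested members with the most reads were miR-7116-3p with 61 reads (in Acly, ATP citrate lyase), miR-7012-5p with 55 (in Dennd4b) and miR-7052-3p with 53 (in Josd2).

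Directions over the tested members leaned up, as they did for names numbered from 1000 and below 6000. The log2 change was above 0 for 41 of 60 (68.3%) against 52.2% of all tested names, and the median was 0.27, with the middle of the members from -0.096 to 0.56, against 0.015. By depth, members with 20 to 99 reads had a median of 0.35 and 65.4% above 0 (26 members) beside 0.28 and 64.3% for the 28 other names of that depth, members with at least 100 and below 1000 reads had 0.26 and 75.9% (29) beside 0.022 and 52.1% (146), and the 5 members with 1000 or more reads had -0.079 and 40% beside -0.021 and 47.8% (291). The part of depth in the lean was not tested. By number, the 39 tested names from 1000 and below 2000 had a median of 0.14 and 76.9% above 0. The 45 from 2000 and below 6000 had 0.13 and 62.2%, and the 362 below 1000 had -0.024 and 48.1%. By position the median was 0.35 for the 29 members at splice sites, 0.15 for the 22 elsewhere and 0.36 for the 9 without a hairpin entry. By arm it was 0.35 for 39 3p names, 0.36 for 10 5p names and 0.023 for 11 names without an arm.

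All 3 trials had the same direction for 30 of 60 tested members (50%), 24 up and 6 down, against 58.5% of all tested names, 29% up and 29.5% down. For members with at least 100 reads it was 15 of 34 (44.1%). Among tested names numbered from 1000 and below 2000, 43.6% were up and 10.3% down in all 3 trials. Among those numbered from 2000 and below 6000, 28.9% were up and 20% down.

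**Figure D5:**
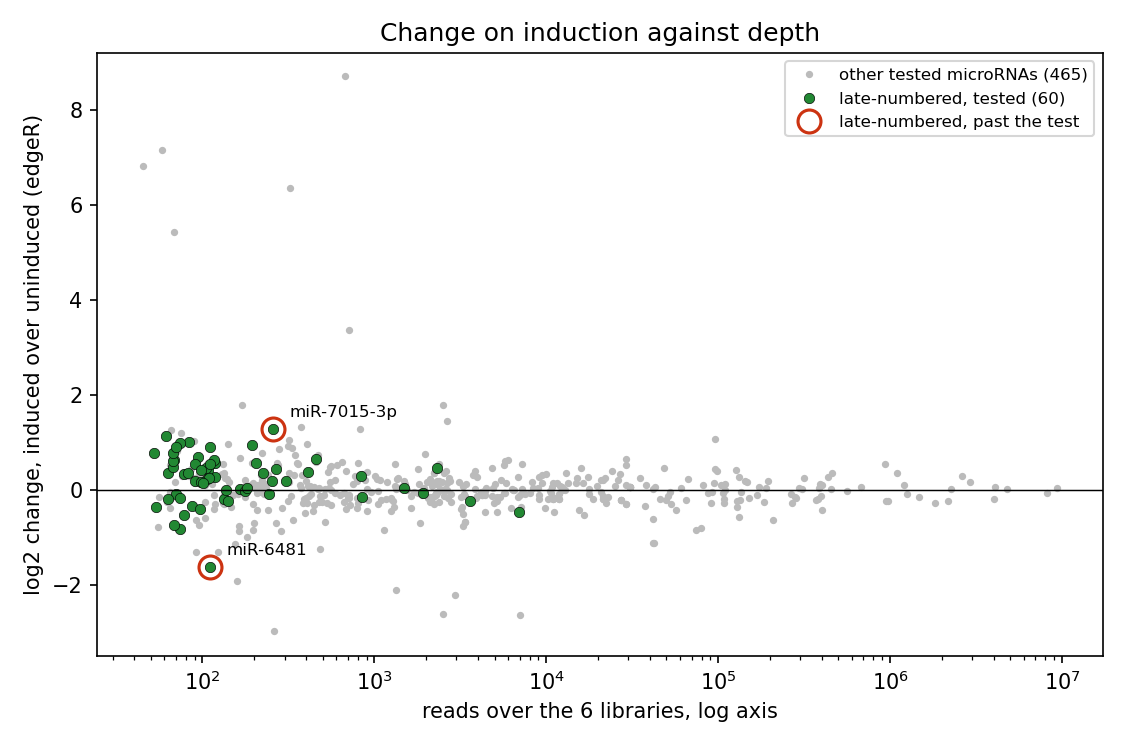
Log2 change of induced over uninduced (edgeR, y axis) against reads over the 6 libraries (log x axis) for the 525 tested names, with the late-numbered members marked. Members sit at the shallow end, between -1.64 and 1.27, with a median of 0.27.

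MicroRNAs of known non-canonical origin were read in the same libraries, and 0 of 6 tested arms passed in edgeR. The mirtron miR-877-5p stood at 48.8 ± 10.4 CPM uninduced and 51.8 ± 8.87 CPM induced (SD, n = 3; log2 0.085), and the mirtron miR-702-5p at 2.47 ± 0.36 and 4.11 ± 1.97 CPM (SD, n = 3; log2 0.76, SE 0.35, adjusted p = 0.243). miR-484, cut without Drosha, stood at 2164 ± 20.9 and 2418 ± 42.1 CPM (SD, n = 3; log2 0.16), and miR-320-3p had a log2 change of -0.058. The mirtron miR-1224 had 0 reads on both arms, and miR-451a, which is made without Dicer, had 17 reads. In the mean over the 6 libraries, miR-6539 and miR-7224-3p were the only members above miR-877-5p.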

How the data were processed

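Small RNA reads of 3 induced and 3 uninduced samples were analysed from tables of mature microRNAs. One table deposited by the authors holds raw counts, and another holds CPM, equal to those counts scaled to 1000000 per library within 0.005. The tools named in the submitters' processing notes are Trim Galore 0.4.0 and DESeq2 (given there as 2.1.8.0), with mm10; per the series' design text, reads were aligned to miRBase. For the counter, the miRBase release and the handling of strand and multiple matches: not given in the sources used here. The table has 2061 entries, and keeping the highest entry per name left out 17.5% of its reads.

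Counts were fitted over all names with edgeR 4.0.16 in R 4.3.3 (TMM scaling, filterByExpr, robust quasi-likelihood test with Benjamini-Hochberg adjustment, group only). Alternatives were other scalings, filters and entries, the trial block, DESeq2 1.42.0, limma-voom 3.58.1 and leaving out each library. Trial numbers come from the labels; libraries of the same trial deviated together, with correlations of 0.33, 0.45 and 0.53 over 525 names, so the trials pair the libraries. Members were named if they passed the threshold, were among the 12 with the most reads, had one of the 6 largest changes in a direction with at least 50 reads, belonged to one of the 6 most read hairpins with both arms at 20 reads or more, were the 2 just inside the 20-read rule (2 of 9 tied) or the 2 names just outside it, were read in 1 group alone, or were among the 4 untested with the most reads. One member that this rule names is not reported here. The members and lists were chosen with earlier results of these data known.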

Additional observations from a re-analysis of the deposited data

How the results depend on the processing

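The number of members passing the test (2) was, in edgeR unless another tool is named, 0 with RLE size factors (11 at an unadjusted p under 0.05), 0 with the sum of a name's entries (12 unadjusted), 0 with the lowest entry (11 unadjusted), 0 in limma-voom (10 unadjusted), 1 with total counts only, 2 in DESeq2, 3 with no filter (one of them miR-6541, a member through its induced reads alone) and 6 with the trial block; leaving out each library in turn gave 0 to 2. Over all names, 32 passed, against 114 with the trial block, 48 with no filter, 20 in limma-voom and 12 to 41 without a library. Adjusted p over 15 alternatives ran from 0.00080 to 0.153 for miR-7015-3p and from 0.00072 to 0.183 for miR-6481, each passing in 6. The median log2 change was 0.23 with a minimum of 10 reads in 3 libraries and 0.21 to 0.27 when libraries were left out. Of 22 single members under 15 alternatives, 303 of 330 values kept direction and call, 5 changed sign and 4 gained a call. The other 18 lost the call, and all of these were of miR-7015-3p and miR-6481. The remaining members had no call to lose. The sign turned when libraries were left out for miR-6240 (-0.47 to 0.23), miR-7046-3p (-0.11 to 0.54) and miR-8112 (-0.037 to 0.072), and the cause was not tested. The splice-site share was 61.8% with no tolerance and 66.7% with 20 nt. Its split moved more: with 20 nt, 14 hairpins spanned a whole intron and 54 had only the 3′ end at a splice site.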
